A study of Mus musculus with 2 samples.

Results

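The cells described here are the Krt8-positive cells of an RKP tumour section in which Epcam was almost absent. They were selected on their measured transcript counts by a fixed rule: 80 or more gene counts in the cell, 3 or more counts of Krt8, 0 or 1 count of Epcam, and no count of Ptprc, Cd68, Mpeg1, Pecam1 or Csf3r, which mark leukocytes and endothelium. The rule found 7742 cells, or 3.84% (Clopper-Pearson 95% interval 3.76 to 3.93) of the 201447 RKP cells of that depth, in a section of 255744 cells and a series of 516855. Epcam was at 0 in 6265 of them (80.9%) and at 1 in the other 1477, so "Epcam-low" describes them better than "Epcam-free". They were set against 60717 Epcam-high cells of the same section, which had 80 or more gene counts and 5 or more counts of both Epcam and Krt8.

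Xenium In Situ is an imaging assay that reads out individual transcripts in place, and each is then given to a segmented cell. Here it measured 479 genes in 1 section of RKP tumour and 1 section of EKP tumour. Per the labels, cultured RKP or EKP cells mixed with Matrigel were injected subcutaneously on each flank of 5-week-old C57BL/6 mice, and the tumours, labelled diffuse gastric cancer, were embedded in paraffin at similar volumes. The number of cells injected was the same for RKP and EKP, at 3 in units of 1000000 cells. The labels do not spell out the letters or say which line carries the mutant RHOA of the series' title, and each line stands here as 1 section with no replicate. Every value therefore describes these sections, no test between groups was possible, and the intervals cover counting error only. Because the rule itself chose cells on Krt8, Epcam and 5 other genes of the same contrast, the gene differences between Epcam-low and Epcam-high cells are given as a description.

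Krt8 encodes a keratin of simple epithelia, and Epcam encodes an adhesion protein on the surface of most epithelial cells. In an epithelial-mesenchymal transition, cells lower E-cadherin (Cdh1), claudins and Epcam and raise genes of migrating cells, a change driven in many settings by the zinc finger repressors Snai1 and Snai2. Carcinoma cells can hold keratins while they lose other epithelial genes, and stromal cells also express Snai1, Snai2 and S100a4, so these genes alone do not separate a carcinoma cell from a fibroblast.

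Snail repressors are known to bind the sequence CAGGTG, which reads CACCTG on the other strand. The promoter windows of Epcam and of a pair of claudin genes that were low in the Epcam-low cells are shown for that reason, with every copy of either form in capitals. Each window runs from 250 bases before to 50 after an annotated start, in RefSeq on GRCm38.p6: chr17:87635729-87636028 on the plus strand for Epcam, chr5:134946885-134947184 on the minus strand for Cldn4 and chr11:69965171-69965470 on the plus strand for Cldn7.
Epcam: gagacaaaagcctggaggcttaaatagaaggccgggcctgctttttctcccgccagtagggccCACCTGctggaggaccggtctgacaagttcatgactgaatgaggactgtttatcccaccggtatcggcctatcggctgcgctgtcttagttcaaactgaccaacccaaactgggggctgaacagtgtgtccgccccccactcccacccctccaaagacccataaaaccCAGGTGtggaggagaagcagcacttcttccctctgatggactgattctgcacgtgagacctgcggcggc
Cldn4: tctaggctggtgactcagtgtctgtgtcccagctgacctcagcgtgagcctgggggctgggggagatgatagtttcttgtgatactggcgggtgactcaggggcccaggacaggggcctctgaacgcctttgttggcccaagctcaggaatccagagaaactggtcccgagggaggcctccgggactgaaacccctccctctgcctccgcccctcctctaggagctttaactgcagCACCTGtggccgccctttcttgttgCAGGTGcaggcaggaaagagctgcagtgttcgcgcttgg
Cldn7: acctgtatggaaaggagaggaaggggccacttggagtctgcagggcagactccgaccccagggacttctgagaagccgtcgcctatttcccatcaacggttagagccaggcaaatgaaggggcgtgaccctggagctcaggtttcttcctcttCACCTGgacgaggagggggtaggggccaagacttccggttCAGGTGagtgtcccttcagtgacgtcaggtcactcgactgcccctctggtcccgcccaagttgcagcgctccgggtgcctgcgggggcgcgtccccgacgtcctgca
Counted from 1 at the 5′ end, the motif began at positions 64 and 232 for Epcam, 237 and 262 for Cldn4, and 154 and 194 for Cldn7, which has a second window without it. Of the 12 genes with a window among Epcam and the strongly lower genes named further on, 7 held the motif (58.3%), against 1 of 9 such genes (11.1%) among the strongly higher ones, where it was Ppargc1a. The share was 29.0% of 345 panel genes with a window and 22.6% of 27025 genes in the table. Epcam, which the rule used, is among the 7 genes, and Cldn2, Gabrp, Gpa33, Muc4 and Prom2 had no copy. Each window shown holds 2 copies, while the other windows of the strongly lower genes held at most 1, as in Cldn3. Cdh1, also among the strongly lower genes, had no window. The motif was chosen after the gene values were known, and a match is a run of letters and not a bound site. Binding was not measured, and a role of Snail repressors was not tested.

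The Epcam-low cells held 1418633 gene counts in all, with a median of 168 counts (interquartile range 125 to 224) and 63 genes per cell. Epcam-high cells were deeper, at a median of 260 counts and 78 genes. Krt8 had a median of 5 counts (4 to 7, at most 30) in Epcam-low cells and 11 in Epcam-high cells. Per 1000000 gene counts (CPM), Krt8 stood at 32729 in Epcam-low and 44266 in Epcam-high cells, a difference of 1.35-fold that the thresholds on Krt8 help to set. The highest of 20 negative control probes, which match no transcript, reached 8.46 CPM in Epcam-low and 3.09 CPM in Epcam-high cells. In the whole sections the median cell had 154 counts in RKP and 84 in EKP, and 19 barcodes occurred in both files, none of them among the Epcam-low RKP cells.

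Among RKP cells that met every other part of the rule, the count of Epcam was not spread evenly. The number of cells was 6265 at an Epcam count of 0, 1477 at 1, 1157 at 2, 1375 at 3, 1675 at 4, 1948 at 5 and 2116 at 6. The low point at 2 lies just outside the rule.

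**Figure D1:**
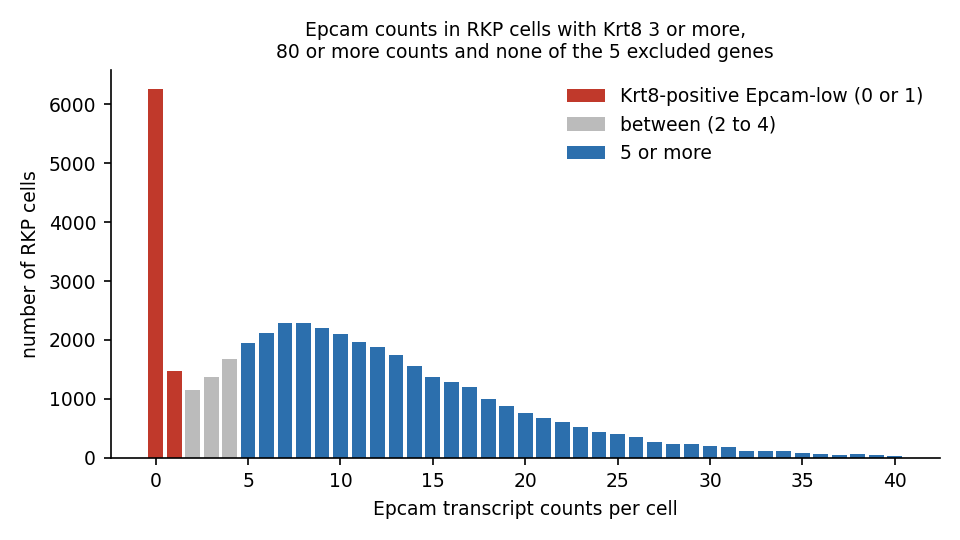
Number of RKP cells (y axis) at each Epcam count per cell (x axis, 0 to 40) among cells with 3 or more counts of Krt8, 80 or more gene counts and none of the 5 excluded genes. Red bars are the 7742 Krt8-positive Epcam-low cells, grey bars cells with 2 to 4 counts and blue bars cells with 5 or more; the number is lowest at 2, with 1157 cells, between the bar at 0 and the broad rise above it.

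The 4 genes named as marks of these cells were all higher in them. S100a4, a calcium-binding protein linked to cell motility, stood at 45732 CPM in Epcam-low cells and 2479 CPM in Epcam-high cells, a ratio of 18.4 (95% interval 18.2 to 18.7). Ptn, the heparin-binding growth factor pleiotrophin, stood at 12012 CPM in Epcam-low cells and 295 CPM in Epcam-high cells, a ratio of 40.7 (39.4 to 42.0). Hey1, a transcriptional repressor induced by Notch signalling, stood at 3754 CPM in Epcam-low cells and 78.8 CPM in Epcam-high cells, a ratio of 47.7 (44.9 to 50.7). These 3 genes were abundant in Epcam-low cells and scarce in Epcam-high cells. Snai2 was the least abundant of the 4 in Epcam-low cells. It stood at 1390 CPM in Epcam-low cells and 184 CPM in Epcam-high cells, a ratio of 7.56 (7.14 to 8.01).

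To compare cells of unequal depth, each cell was thinned at random to 80 counts. S100a4 was then seen in 87.8% of Epcam-low cells (92.2% before thinning) and 15.1% of Epcam-high cells (35.3% before thinning). Ptn was seen in 41.5% of Epcam-low cells (55.5%) and 1.88% of Epcam-high cells (4.37%). Hey1 was seen in 23.3% of Epcam-low cells (39.6%) and 0.623% of Epcam-high cells (1.73%). S100a4 thus marked most of the Epcam-low cells, Ptn and Hey1 a smaller share at this depth. Snai2 was seen in 9.76% of Epcam-low cells (19.4%) and 1.30% of Epcam-high cells (4.32%). At least 2 of the 4 genes were seen in 56.3% of Epcam-low cells and in 1.14% of Epcam-high cells, and 8.41% of Epcam-low cells showed none of them.

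The levels of these genes changed little with the depth of the cells. Between 80 and 119 counts S100a4 stood at 40110 CPM in Epcam-low cells and 2149 CPM in Epcam-high cells, and at 320 or more counts at 49571 CPM in Epcam-low cells and 2439 CPM in Epcam-high cells. Ptn stood between 10253 and 12636 CPM in the 4 depth classes of Epcam-low cells and between 254 and 362 CPM in those of Epcam-high cells. Epithelial genes did change with depth in Epcam-low cells, in which Cldn4 stood at 3097 CPM in the shallowest of the 4 classes and 335 CPM in the deepest.

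Of 381 genes that could be compared, besides those of the rule, 119 (31.2%) were at least 2-fold higher in Epcam-low cells and 86 (22.6%) at least 2-fold lower. The median gene was 0.37 higher on the log2 scale. A gene was compared when its summed count was above every negative control probe in the same cells, and the 2-fold limit is a rule of size, not a test. With counts per cell in place of CPM, the higher genes made up 37.9% of the genes past 2-fold, against 58.0% with CPM, and 45.5% when scaled by the median of ratios.

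**Figure D2:**
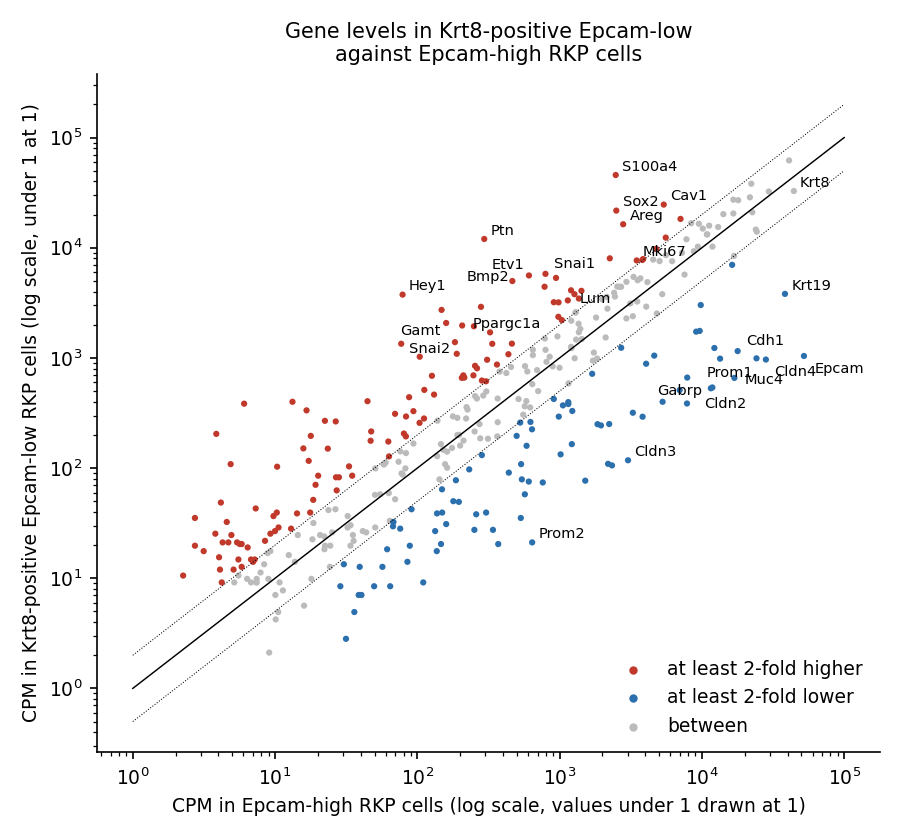
Each point is a gene, with its CPM in Epcam-high RKP cells on the x axis and in Krt8-positive Epcam-low RKP cells on the y axis, both on log scales. Red points were at least 2-fold higher in Epcam-low cells and blue points at least 2-fold lower, the solid line marks equal levels and the dotted lines 2-fold; Hey1, Ptn and S100a4 lie farthest above the lines among the abundant genes, and Cldn4, Prom1 and Muc4 far below. Krt8 and Epcam are drawn although the rule used them.

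The 12 genes with the largest ratios above 500 CPM were Hey1, Ptn, S100a4, Mamdc2, Tnfaip6, Gamt, Bmp2, Cplx2, Aif1l, Ppargc1a, Etv1 and Sox2. Sox2, a transcription factor of stem and progenitor cells, stood at 21735 CPM in Epcam-low cells and 2502 CPM in Epcam-high cells (8.69-fold). Etv1, an ETS family transcription factor, stood at 5600 CPM in Epcam-low cells and 609 CPM in Epcam-high cells (9.20-fold). Bmp2, a secreted ligand of the TGF-beta superfamily, stood at 4985 CPM in Epcam-low cells and 465 CPM in Epcam-high cells (10.7-fold). These 3 genes were abundant in Epcam-low cells. Gamt, which completes creatine synthesis, stood at 2076 CPM in Epcam-low cells and 159.4 CPM in Epcam-high cells (13.0-fold). Ppargc1a, a coactivator of mitochondrial genes, stood at 1969 CPM in Epcam-low cells and 207 CPM in Epcam-high cells (9.53-fold), and Cplx2, which regulates vesicle fusion at synapses, at 2908 CPM in Epcam-low cells and 280 CPM in Epcam-high cells (10.4-fold). The remaining leading genes were Mamdc2 (18.4-fold), Tnfaip6, a secreted hyaluronan-binding protein (17.5-fold), and Aif1l (9.86-fold).

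Epithelial junction and surface genes made up the other end. Cldn4, a tight junction protein, stood at 966 CPM in Epcam-low cells and 28161 CPM in Epcam-high cells, 29.1-fold lower (27.6 to 30.7). Prom1, a membrane protein of epithelial protrusions also used as a stem cell marker, stood at 991 CPM in Epcam-low cells and 24189 CPM in Epcam-high cells (24.4-fold lower). Cdh1, E-cadherin of adherens junctions, stood at 1153 CPM in Epcam-low cells and 17835 CPM in Epcam-high cells (15.5-fold lower). The other 9 of the 12 strongly lower genes were Prom2 (30.3-fold), Cldn3 (25.7-fold), Muc4, a membrane mucin (25.7-fold), Cldn7 (22.1-fold), Cldn2 (22.0-fold), Gabrp, a GABA receptor subunit (21.8-fold), Gpa33, a surface protein of gut epithelium (20.4-fold), Muc20 (20.1-fold) and the water channel Aqp3 (19.7-fold). Cldn4 was seen in 6.16% of Epcam-low cells thinned to 80 counts (9.36% unthinned) and 82.0% of Epcam-high cells (95.5%), and in 2.60% (5.21%) of the Lum-positive cells described further on, which should lack it and had a median of 146 counts.

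The keratins did not go together. Krt8 was required, and Krt19, a second keratin of simple epithelia, stood at 3812 CPM in Epcam-low cells and 38364 CPM in Epcam-high cells, 10.1-fold lower (9.8 to 10.3). It was seen in 20.4% of Epcam-low cells at 80 counts (31.3% unthinned) and 93.5% of Epcam-high cells (99.7%). Leaving out Epcam-low cells with 2 or more counts of Krt19 gave 121 genes higher and 92 lower, in place of 119 and 86.

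Gene lists chosen with earlier results of these data known are given by their counts, to be read against the 31.2% higher and 22.6% lower over all genes compared. All 5 genes of epithelial identity that were outside the rule and on the panel with a ratio, Cdh1, Krt19, Cldn3, Cldn4 and Cldn7, were at least 2-fold lower, with a median of -4.46 on the log2 scale. Of 13 claudins and mucins 10 were lower and none higher (median -3.77), and of 15 gastric and gut genes 13 were lower and none higher (median -2.84). Muc1, a membrane mucin, stood at 985 CPM in Epcam-low cells and 13425 CPM in Epcam-high cells, and Ctse, cathepsin E of gastric surface cells, at 663 CPM in Epcam-low cells and 7887 CPM in Epcam-high cells. Lists overlap, so Cldn4 or Prom1 counts in more than 1 of them.

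Of 9 genes on the mesenchymal transition list 5 were higher and none lower, with a median of 1.82. Snai1 stood at 5794 CPM in Epcam-low cells and 795 CPM in Epcam-high cells (7.29-fold, 7.09 to 7.49). Cav1, the main protein of caveolae, stood at 24648 CPM in Epcam-low cells and 5393 CPM in Epcam-high cells (4.57-fold), and the gelatinase Mmp2 at 3202 CPM in Epcam-low cells and 910 CPM in Epcam-high cells (3.52-fold). The contractile genes of the list differed less than 2-fold. Acta2, smooth muscle actin, stood at 20458 CPM in Epcam-low cells and 16643 CPM in Epcam-high cells, and Tagln at 3247 CPM in Epcam-low cells and 3510 CPM in Epcam-high cells. The 5 higher genes were both Snail genes, S100a4, Mmp2 and Cav1. Among Epcam-low cells with no count of fibroblast genes 4 of the 9 were higher and 4 lower (median -0.02). Only the Epcam-low cells were cleared of fibroblast genes there, and Col1a1 was seen in 79.7% of Epcam-high cells before thinning. That split therefore depends on the cells compared. Among Epcam-low cells with 10 or more counts of Krt8 4 were higher and 2 lower (median 0.71). The counts over all genes also changed at these settings. Without fibroblast genes 101 of 358 genes were higher and 128 lower (median -0.12). With Krt8 at 10 or more 88 of 349 genes were higher and 122 lower (median -0.22).

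Of the Notch pathway 3 genes were measured and 2 were higher. Hes1, like Hey1 a repressor induced by Notch, stood at 4444 CPM in Epcam-low cells and 2542 CPM in Epcam-high cells, 1.75-fold. Hey2 was near the bottom of the range in both, at 39.5 CPM in Epcam-low cells and 17.7 CPM in Epcam-high cells (2.24-fold). Notch ligands and receptors were not analysed here.

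Of 6 ligands and receptors of growth control, 4 were past 2-fold higher and none past 2-fold lower (median 1.79). Areg, amphiregulin, a ligand of the EGF receptor, stood at 16335 CPM in Epcam-low cells and 2797 CPM in Epcam-high cells (5.84-fold). Its receptor Egfr stood at 9775 CPM in Epcam-low cells and 4777 CPM in Epcam-high cells (2.05-fold). The angiogenic factor Vegfa, at 8435 CPM in Epcam-low cells and 16818 CPM in Epcam-high cells, and Pdgfb, at 2921 CPM in Epcam-low cells and 4062 CPM in Epcam-high cells, stayed within 2-fold. With counts per cell in place of CPM, 3 of the 6 were higher and 2 lower, and of all 385 genes 75 were higher and 123 lower.

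Stem cell and WNT genes split, with 3 of 10 higher, 2 lower and a median of -0.03. Sox2 was higher and Prom1 lower, as given above. Cd44, the hyaluronan receptor, stood at 20995 CPM in Epcam-low cells and 22609 CPM in Epcam-high cells, and Sox9 at 5707 CPM in Epcam-low cells and 7552 CPM in Epcam-high cells. The WNT target Axin2 stood at 945 CPM in Epcam-low cells and 1713 CPM in Epcam-high cells.

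Of 5 proliferation genes 2 were past 2-fold and none lower, with a median of 1.00, a share close to that of all genes. None of the 5 passed 2-fold with counts per cell, with the median of ratios, in the last 5 parts of the file or in the 5 rich parts described further on, pooled. By contrast, 4 passed it with Krt8 at 10 or more, and 3 in the first 5 parts of the file or at 160 or more counts. Over all genes, 88 of 349, 120 of 374 and 117 of 363 were higher at these settings, in that order. In single rich parts the log2 ratio of Mki67 ran from 0.07 to 1.52. Mki67, a nuclear protein of cycling cells, stood at 7667 CPM in Epcam-low cells and 3483 CPM in Epcam-high cells (2.20-fold), and Top2a, a topoisomerase of dividing cells, at 7745 CPM in Epcam-low cells and 3817 CPM in Epcam-high cells (2.03-fold). Both ratios lie close to the limit. None of the 3 hypoxia genes or the 3 tumour suppressor genes passed 2-fold in either direction. Hif1a stood at 16695 CPM in Epcam-low cells and 8406 CPM in Epcam-high cells, and Trp53 at 1025 CPM in Epcam-low cells and 851 CPM in Epcam-high cells.

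Of 8 secretory granule and neural genes 4 were higher and 1 lower, all at low levels. Ptprn2, a membrane protein of secretory granules, stood at 204 CPM in Epcam-low cells and 3.86 CPM in Epcam-high cells, a ratio of 52.9 (40.3 to 70.4). Its level in Epcam-high cells lay close to that of their highest negative control probe, 3.09 CPM, so the size of the ratio is uncertain beyond its interval. Insm1, a neuroendocrine transcription factor, stood at 294 CPM in Epcam-low cells and 83.3 CPM in Epcam-high cells, and Snap25, a vesicle fusion protein, at 64.1 CPM in Epcam-low cells and 149 CPM in Epcam-high cells. Of 8 squamous and keratinocyte genes 3 were higher and 2 lower. Both interferon genes on their list, Rsad2 and Ifitm6, were lower. Only 1 of the 2 was past 2-fold against Epcam-high cells without the 5 excluded genes. Psmb8 and Epsti1, which were not on that list, stood at log2 ratios of 0.37 and 0.33.

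Along the count of Epcam the genes changed step by step. At Epcam counts of 0, 1, 2, 3 to 4, 5 to 9 and 10 or more, among RKP cells with 3 or more counts of Krt8 and none of the 5 excluded genes, S100a4 stood at 48495, 34242, 14240, 6174, 2592 and 1812 CPM. Ptn stood at 12678, 9238, 4218, 1742, 591 and 207 CPM. Cldn4 ran the other way, at 413, 3270, 10553, 18530, 25123 and 30179 CPM. The cells at 1, just inside the rule, thus lay between those at 0 and those at 2, just outside it. Col1a1, the main fibrillar collagen of fibroblasts, and Lum, lumican, were highest at an Epcam count of 2, at 35058 and 6026 CPM.

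**Figure D3:**
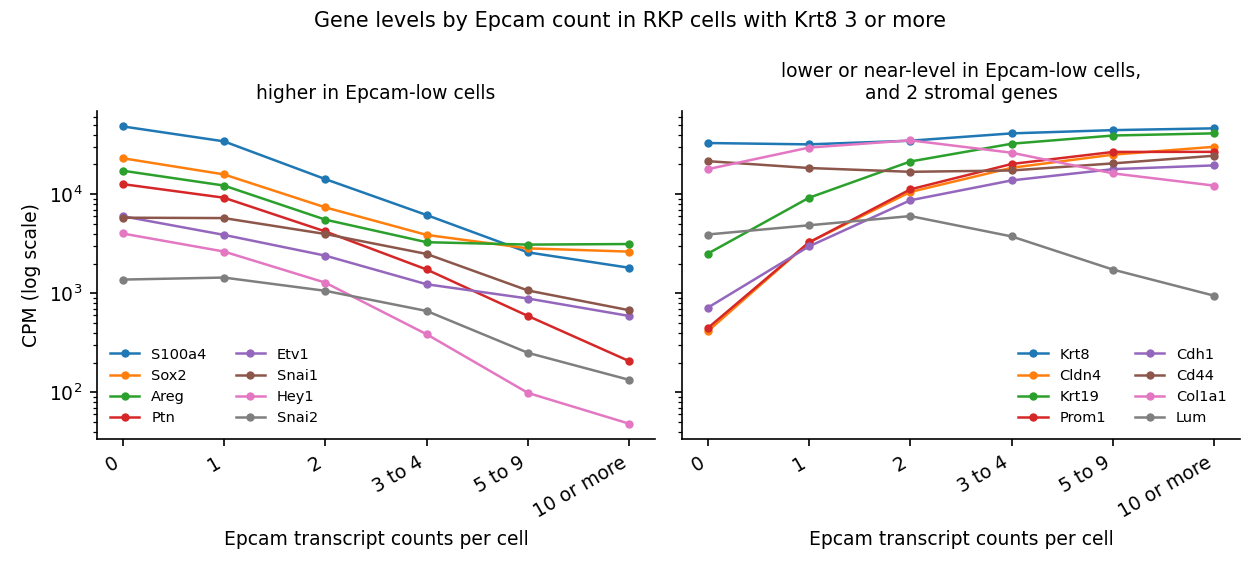
CPM on a log y axis against the Epcam count per cell on the x axis, in RKP cells with 3 or more counts of Krt8 and none of the 5 excluded genes, each line a gene. In the left panel S100a4 falls to 1812 CPM at 10 or more counts of Epcam, against 48495 at 0, and each of the other genes is also lower at 10 or more than at 0; in the right panel Cldn4, Krt19, Prom1 and Cdh1 climb, Krt8 and Cd44 stay within a narrow band, and Col1a1 and Lum peak at a count of 2.

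S100a4 and Col1a1 also changed step by step with Krt8 among cells with 0 or 1 count of Epcam, but Ptn and Snai1 did not. At Krt8 counts of 0, 1, 2, 3, 4, 5 to 9, 10 to 19 and 20 or more, S100a4 stood at 9060, 21661, 33162, 36949, 40442, 46929, 56225 and 64683 CPM. Col1a1 ran the other way over the same classes, at 68827, 59073, 38638, 30984, 25065, 17792, 10644 and 6458 CPM. The cells at 2, just outside the rule, were close to those at 3, just inside it, and differed most in Col1a1. Ptn was highest at a Krt8 count of 4, at 13196 CPM, and Snai1 changed little, between 5112 and 6605 CPM over all classes. The highest class held 51 cells.

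Stromal cells express several of the same genes, so the Epcam-low cells were set against 1652 RKP cells of the same depth with 3 or more counts of Lum, no Krt8, no Epcam and none of the 5 excluded genes. S100a4 stood at 45732 CPM in Epcam-low cells and 6470 CPM in Lum-positive cells, Ptn at 12012 CPM in Epcam-low cells and 1034 CPM in Lum-positive cells, and Hey1 at 3754 CPM in Epcam-low cells and 339 CPM in Lum-positive cells. Sox2 stood at 21735 CPM in Epcam-low cells and 1487 CPM in Lum-positive cells, and Areg at 16335 CPM in Epcam-low cells and 773 CPM in Lum-positive cells. These 5 genes were therefore higher in Epcam-low cells than in either of the other groups. Snai1 stood at 5794 CPM in Epcam-low cells and 7077 CPM in Lum-positive cells, Snai2 at 1390 CPM in Epcam-low cells and 2204 CPM in Lum-positive cells, and Tnfaip6 at 1344 CPM in Epcam-low cells and 6039 CPM in Lum-positive cells. The Snail genes thus did not set Epcam-low cells apart from the Lum-positive cells. Over all genes, 127 of 400 (31.8%) were at least 2-fold higher in Epcam-low than in Lum-positive cells and 146 (36.5%) lower.

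Fibroblast genes were present in the Epcam-low cells at an intermediate level. Of 7 such genes 3 were at least 2-fold higher than in Epcam-high cells, 1 was lower and 3 lay between, and none was at 0. Their summed level was 28657 CPM in Epcam-low cells, 20483 CPM in Epcam-high cells and 187722 CPM in Lum-positive cells, and over 10 parts of the file it ranged from 24225 to 99381 CPM in Epcam-low cells and from 13299 to 26102 CPM in Epcam-high cells. Col1a1 stood at 20183 CPM in Epcam-low cells, 14152 CPM in Epcam-high cells and 101243 CPM in Lum-positive cells, and Lum at 4110 CPM in Epcam-low cells, 1203 CPM in Epcam-high cells and 42049 CPM in Lum-positive cells. Of the Epcam-low cells 2141 (27.7%) had no count of Lum, Dpt, Pi16, Mfap5 or Col1a1. Among these cells alone, 101 genes were at least 2-fold higher and 128 lower than in Epcam-high cells. Mmp2 turned from higher to lower there. The Epcam-high cells were not cleared of the fibroblast genes, so these counts and the ratio of Mmp2 depend on the cells compared.

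Among endothelial genes, with Pecam1 at 0 by the rule, 2 of 8 were higher. Plvap, a protein of endothelial diaphragms, stood at 1936 CPM in Epcam-low cells and 250 CPM in Epcam-high cells (7.75-fold), and Angpt2, a vessel-destabilising ligand, at 688 CPM in Epcam-low cells and 127 CPM in Epcam-high cells (5.43-fold). The summed list stood at 4951 CPM in Epcam-low cells and 2773 CPM in Epcam-high cells, with ranges over the parts of 4083 to 8745 CPM in Epcam-low cells and 2203 to 3255 CPM in Epcam-high cells. Kdr, a receptor of most endothelial cells, stood at 178 CPM in Epcam-low cells and 211 CPM in Epcam-high cells. Macrophage genes summed to 25202 CPM in Epcam-low cells and 28201 CPM in Epcam-high cells although Cd68 and Mpeg1 were at 0 by the rule in Epcam-low cells, with 3 of 12 genes higher and 2 lower, and ranges over the parts of 17343 to 33156 CPM in Epcam-low cells and 22139 to 34280 CPM in Epcam-high cells. Contractile genes summed to 29894 CPM in Epcam-low cells and 24995 CPM in Epcam-high cells, with none of 9 past 2-fold and ranges over the parts of 23712 to 88326 CPM in Epcam-low cells and 19319 to 28678 CPM in Epcam-high cells. Neutrophil genes, 6 of 9 of them lower, summed to 6321 CPM in Epcam-low cells and 8919 CPM in Epcam-high cells, and T and NK cell genes, 4 of 8 lower, to 687 CPM in Epcam-low cells and 822 CPM in Epcam-high cells. The lists of dendritic cell, lymphatic, mast cell, muscle, adipocyte, nerve and squamous epithelial genes summed to at most 836 CPM in Epcam-low cells and 1032 CPM in Epcam-high cells. These counts depend on the cells compared, since only the Epcam-low cells were cleared of the 5 excluded genes. Against the 28487 Epcam-high cells that also lacked the 5 genes, 153 of all 381 genes were higher and 79 lower. The median over all genes rose as well, to 0.70, against 0.37 with all Epcam-high cells. There 5 of 8 endothelial genes were higher and none lower (median 1.12, against 0.00 with all Epcam-high cells), and 7 of 12 macrophage genes were higher and 1 lower (median 1.27, against 0.33). Of 9 neutrophil genes 2 were higher and 3 lower (median -0.41, against -1.74), and of 8 T and NK cell genes 2 were higher and none lower (median 0.71, against -0.96). The median of the T and NK cell genes was thus close to that of all genes. The part of neighbouring cells' transcripts in these levels was not tested.

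The 5 excluded genes removed most candidates. Of 26948 RKP cells with the required Krt8, Epcam and depth, 19206 (71.3%) had a count of at least 1 of the 5, most often Mpeg1 (49.6%) and Cd68 (42.7%). The cells left out had 34250 CPM of S100a4, 8206 CPM of Ptn, 2640 CPM of Hey1 and 15425 CPM of Sox2, each below the level in the cells kept and far above that in Epcam-high cells. Counts of the 5 genes were common in Epcam-high cells too, in 53.1% of them. Doublets were not called, and cell outlines were as deposited.

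Positions of cells are not among the values used here, but the order of cells in the file was not even with respect to the Epcam-low cells. In 10 successive equal parts of the file, their share of cells of the same depth was 0.393%, 0.426%, 0.404%, 4.48%, 9.06%, 0.400%, 0.749%, 7.36%, 10.1% and 4.74%. The 5 parts above 1% held 7268 of the 7742 cells (93.9%). The 474 cells of the other parts met the same rule and, pooled, had another profile. S100a4 stood at 6515 CPM in the 474 cells and 47970 CPM in the cells of the 5 rich parts. Ptn stood at 1149 CPM in the 474 cells and 12632 CPM in the rich parts, and Krt19 at 19283 CPM in the 474 cells and 2929 CPM in the rich parts. Col1a1 stood at 60276 CPM in the 474 cells and 17894 CPM in the rich parts, while Snai1 was closer, at 4870 CPM in the 474 cells and 5847 CPM in the rich parts. Most of the Epcam-low profile given above is thus that of the cells in the rich parts. With both Epcam-low and Epcam-high cells taken from the 5 rich parts only, 112 genes were higher and 94 lower.

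**Figure D4:**
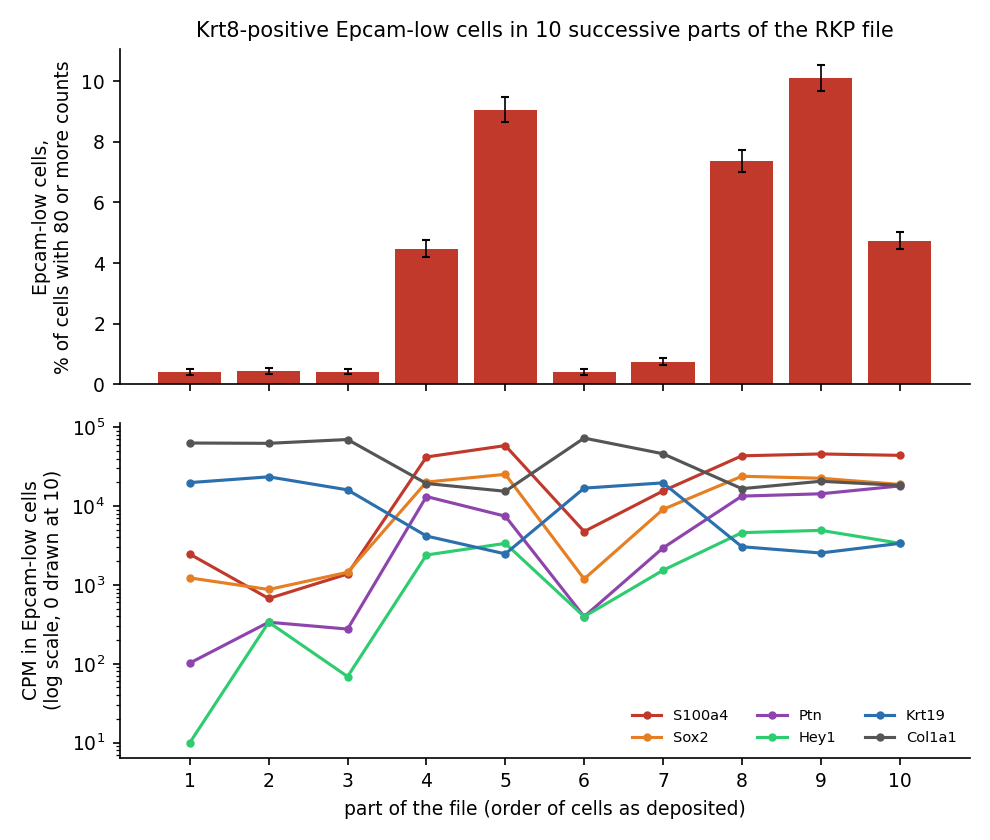
Top panel, share of Krt8-positive Epcam-low cells among RKP cells with 80 or more counts in each of 10 successive parts of the file, with Clopper-Pearson 95% intervals; bottom panel, CPM of 6 genes in the Epcam-low cells of each part on a log axis, with 0 drawn at 10. The share is under 1% in 5 parts, and in these parts S100a4, Sox2, Ptn and Hey1 are lower and Krt19 and Col1a1 higher than in the 5 rich parts.

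The 5 rich parts also differed among themselves. Ptn in Epcam-low cells ranged from 7436 CPM in the fifth part to 17976 CPM in the tenth, and S100a4 from 41897 to 58462 CPM, with its highest level in the fifth. Mki67 ranged from 4788 CPM in the tenth part to 10634 CPM in the fifth, and Areg from 11387 to 25057 CPM over the same parts. The part richest in S100a4, Areg and Mki67 was thus the poorest in Ptn of the 5. In each of the 5 rich parts S100a4, Ptn, Hey1, Snai1 and Snai2 were at least 2-fold higher and Cldn4, Prom1 and Cdh1 at least 2-fold lower than in the Epcam-high cells of the same part. The other parts did not all show this. As log2 ratios over the Epcam-high cells of the same part, S100a4 stood at 0.08, -1.09, -0.80 and 1.28 in parts 1, 2, 3 and 6, and Sox2 at -1.18, -0.86, -0.92 and -0.97. In part 7, which held 154 of the 474 cells, S100a4 stood at 3.19, Ptn at 4.55, Hey1 at 4.81 and Sox2 at 2.17, close to or within the rich parts' ranges. Snai1 and Snai2 were at least 2-fold higher in all 10 parts.

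Within the Epcam-low cells the genes did not all occur together. At 80 counts per cell, Ptn was seen in 45.1% of cells with S100a4 and 15.1% of cells without it, and Sox2 in 74.4% of cells with S100a4 and 33.0% without it. Hey1 was as frequent with Ptn as without it, at 23.8% and 23.0%. Areg was seen in 47.8% of cells with Ptn and 56.0% of cells without it, and in 62.5% of cells with Sox2 and 30.1% without it. These shares describe cells of 1 section, which also differ in their part of the file.

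Cells with Areg after thinning, 4072 of the 7742, differed from the 3670 without it in cell cycle genes. Mki67 stood at 10419 CPM in the cells with Areg and 4070 CPM in those without, Bmp2 at 6816 CPM with and 2681 CPM without, and Ppargc1a at 2613 CPM with and 1189 CPM without. Each of the 3 was higher with Areg in all 5 rich parts. Cells with Ptn, 3212 in number, had another set of genes. Plvap stood at 2825 CPM in the cells with Ptn and 1300 CPM in the 4530 without, Hes1 at 5930 CPM with and 3526 CPM without, Snai1 at 7593 CPM with and 4763 CPM without, and Egfr at 12205 CPM with and 7792 CPM without, again in all 5 rich parts. Mki67 ran the other way, at 5077 CPM with Ptn and 8891 CPM without, lower with Ptn in all 5 rich parts.

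The 942 Epcam-low cells with no S100a4 after thinning had higher levels of epithelial genes. Cldn4 stood at 502 CPM in cells with S100a4 and 7458 CPM in those without, and Prom1 at 562 CPM with and 7298 CPM without. The 1578 cells with Krt19 showed the same genes high, with Cldn4 at 4967 CPM in cells with Krt19 and 422 CPM in those without, and S100a4 lower, at 31161 CPM with and 48288 CPM without. Both splits are given over all parts of the file pooled. The 474 cells outside the rich parts also had low S100a4 and high Krt19.

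The same rule applied to the EKP section found 6040 cells, 4.54% (4.42 to 4.65) of 133173 cells of that depth, with a median of 197 counts. Cells that met the rule were therefore present in both sections, and many of their genes differed. Of these EKP cells 342 had no count of Lum, Dpt, Pi16, Mfap5 or Col1a1, against 2141 of the 7742 RKP cells. Whether they are the same kind of cell was not tested. Of 443 genes compared, 76 (17.2%) were at least 2-fold higher in RKP than in EKP Epcam-low cells and 123 (27.8%) lower. Between the Epcam-high cells of the lines, 65 of 458 genes (14.2%) were higher in RKP and 117 (25.5%) lower. With the median of ratios in place of CPM, the higher genes made up 57.0% of those past 2-fold between the Epcam-low cells, against 38.2% with CPM. With 1 section of each line, line, tumour and section cannot be told apart.

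Ptn stood at 12012 CPM in RKP and 478 CPM in EKP Epcam-low cells, and Hey1 at 3754 CPM in RKP and 262 CPM in EKP. Both were the genes with the largest difference above 500 CPM, at 25.1-fold and 14.3-fold. Cplx2 followed, at 2908 CPM in RKP and 391 CPM in EKP, with Psmb8, an immunoproteasome subunit, at 2798 CPM in RKP and 380 CPM in EKP, then Gabrp and Epsti1. Psmb8 and Epsti1 were not particular to the Epcam-low cells, with log2 ratios over Epcam-high RKP cells of 0.37 and 0.33. Gabrp was much lower in Epcam-low than in Epcam-high RKP cells, at -4.45. S100a4 and the Snail genes differed less than 2-fold between the lines. S100a4 stood at 45732 CPM in RKP and 28706 CPM in EKP, Snai1 at 5794 CPM in RKP and 6025 CPM in EKP, and Snai2 at 1390 CPM in RKP and 911 CPM in EKP. At least 2 of S100a4, Snai2, Ptn and Hey1 were seen in 56.3% of RKP and 8.18% of EKP Epcam-low cells at 80 counts.

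The genes lower in RKP Epcam-low cells were led by Hp, haptoglobin, at 251 CPM in RKP and 2368 CPM in EKP. Ecrg4 stood at 194 CPM in RKP and 1266 CPM in EKP, Acan, the cartilage proteoglycan aggrecan, at 1758 CPM in RKP and 10734 CPM in EKP, and Sfrp1, a secreted WNT inhibitor, at 428 CPM in RKP and 2428 CPM in EKP. Mgll and the smooth muscle gene Cnn1 completed the 6. Krt19 stood at 3812 CPM in RKP and 18652 CPM in EKP, so EKP Epcam-low cells held more of this keratin. Fibroblast genes summed to 28657 CPM in RKP and 60307 CPM in EKP Epcam-low cells, and contractile and pericyte genes to 29894 CPM in RKP and 54379 CPM in EKP. The part of stromal transcripts in the difference between the lines was not tested.

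**Figure D5:**
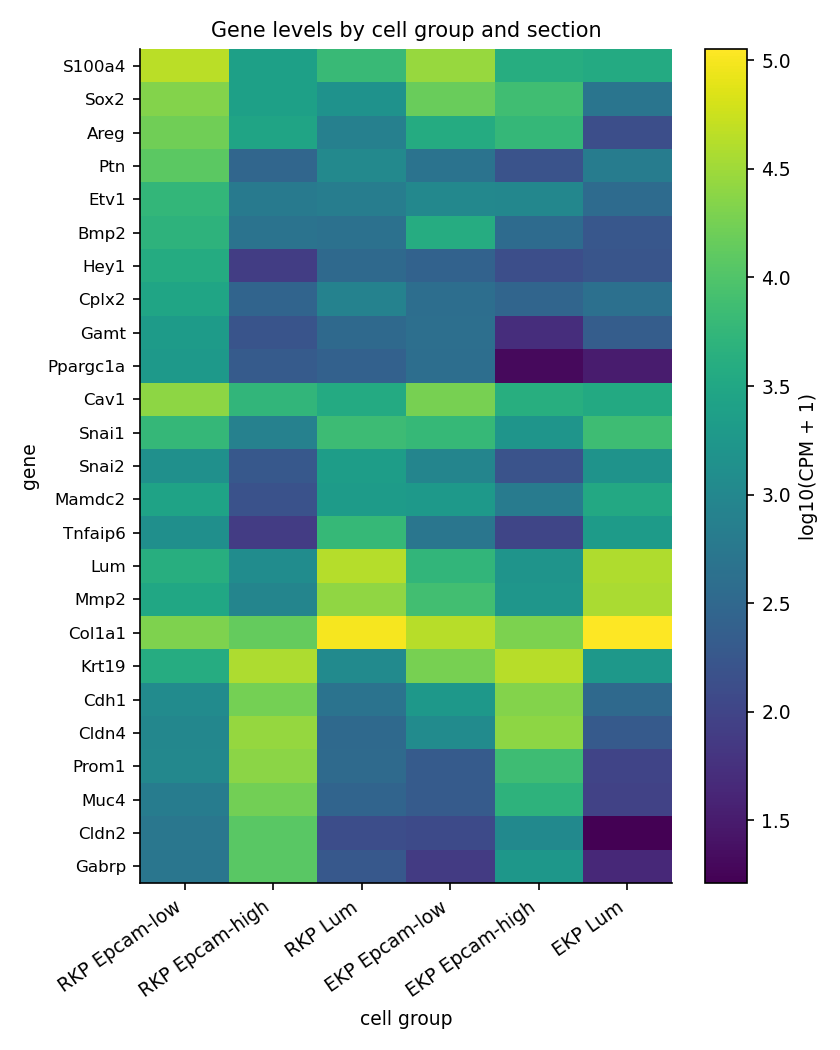
Levels of 25 genes (rows) as log10(CPM + 1) in 6 cell groups (columns), the 3 groups of the RKP section left of those of the EKP section. The RKP Epcam-low column stands out in Ptn, Hey1, Etv1 and Cplx2, shares S100a4, Bmp2 and Cav1 with the EKP Epcam-low column, and shares Snai1 and Snai2 with both Lum-positive columns; colours are not comparable between genes as amounts of RNA.

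The step between Epcam-low and Epcam-high cells also differed by section. As log2 ratios of Epcam-low over Epcam-high cells, S100a4 stood at 4.21 in RKP and 2.83 in EKP, Bmp2 at 3.42 in RKP and 3.42 in EKP, Cav1 at 2.19 in RKP and 2.15 in EKP, and Snai2 at 2.92 in RKP and 2.53 in EKP. Cldn4 stood at -4.86 in RKP and -4.45 in EKP, and Cdh1 at -3.95 in RKP and -3.62 in EKP. All 6 genes lay on the same side of 0 in both sections, with the step of S100a4 larger in RKP and the other 5 closer to each other. Ptn stood at 5.35 in RKP and 1.61 in EKP, Hey1 at 5.58 in RKP and 0.95 in EKP, Etv1 at 3.20 in RKP and 0.05 in EKP, Cplx2 at 3.38 in RKP and 0.43 in EKP, and Areg at 2.55 in RKP and -0.65 in EKP. For these 5 genes the ratio was larger in RKP, and for Areg it lay on the other side of 0 in EKP; with 1 section each, the difference was not tested. In EKP 160 of 457 genes (35%) were at least 2-fold higher in Epcam-low cells and 62 (13.6%) lower.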

How the data were processed

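The deposited values are whole-number transcript counts of each gene and control probe in each segmented cell, 1 matrix a section, not normalized by the authors. The submitters' processing notes list Seurat 4.4.0 without its role. The sources used here state neither the segmentation nor the quality limit, and positions were not used.

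Sections were grouped by their titles. Gene counts were summed over the cells of a group and scaled to 1000000 (CPM), in Python 3.11.15 with numpy 2.4.6 and scipy 1.17.1. A gene was compared when its summed count was above every negative control probe in at least 1 group. A lower group at or under its highest probe was set to that probe's level, which makes the ratio a lower bound, and no ratio was given where this reached the higher group (31 genes for Epcam-low over Epcam-high RKP cells). The 7 genes of the rule were left out of counts. The 95% intervals of ratios are exact and conditional on the summed count of both groups, those of shares are Clopper-Pearson, and both cover counting error only. Shares of cells came from each cell thinned to 80 counts without replacement. Doublets were not called. The steps were tested on simulated data.

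The cells, the lists and the tests were chosen with earlier results of these data known. Named genes are Krt8, S100a4, Snai2, Ptn, Hey1 and Epcam, the 12 genes most changed each way at 500 CPM or more, 6 in each direction between the lines, and up to 5 genes a list, the most abundant in both groups together. The alternatives were other scalings, gene filters, depths, thresholds, the first or last 5 parts of the file and Epcam-high cells without the 5 excluded genes. Restricting to the parts of the file with 1% or more Epcam-low cells, and to low Krt19, were added after seeing the data. Promoters are from RefSeq on GRCm38.p6. Of the named genes 1 is not reported here.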

Additional observations from a re-analysis of the deposited data

Results flagged for a closer look

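Among the named genes, 3 had log2 ratios of Epcam-low over Epcam-high cells past 2-fold in opposite directions in the RKP and EKP sections. Krt79, a keratin of hair follicle and gland epithelium, stood at 2.16 in RKP and -2.34 in EKP. Scg2, a secretory granule protein, stood at 2.68 in RKP and -2.73 in EKP. S100b, a calcium-binding protein of Schwann cells and some other cells, stood at -1.03 in RKP and 2.62 in EKP. All 3 genes were scarce, with at most 569 CPM in any of the 4 groups. The difference between the sections was not tested, since each line has 1 section.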

How the results depend on the processing

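The share of Epcam-low cells, 3.84% as reported, was 3.47% among cells of 160 or more counts, 3.66% at 40 or more and 4.42% at 80 or more but under 160; it was 2.22% with Krt8 at 5 or more, 0.481% with Krt8 at 10 or more, 3.11% with Epcam at 0, 1.06% without fibroblast genes, and 2.99% and 4.64% in the first and last 5 parts of the file. The 119 higher genes against Epcam-high cells became 75 with counts per cell and 79 at 100 CPM or more. The 123 genes lower than in EKP became 77 with the median of ratios and 59 at 100 CPM or more; the share of higher genes among those past 2-fold between the lines was 38.2%, 28.2% with counts per cell and 57.0% with the median of ratios. The median gene shifted by 0.37 in CPM, -0.25 with counts per cell and -0.02 with the median of ratios, on the log2 scale. Of 65 named genes past 2-fold, 49 stayed past it in the same direction at each of 20 alternatives, and 1280 of 1285 values kept their sign. The exceptions were Cd8a at 0.47 and Ltc4s at 0.32 against Epcam-high cells without the 5 excluded genes, and, without fibroblast genes, Ecrg4 at -1.83, Mmp2 at -2.16 and Lum at -6.69, which that setting removes. The setting without fibroblast genes cleared only the Epcam-low cells of them. The cause of the other exceptions was not tested. No paired analysis was possible because each line has 1 section and no result comes from a test. Low genes are limited by depth, at 8.46 CPM for the highest negative control probe.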
